A study of Ovis aries with 15 samples.

Results

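The genes described here are 8 transcriptional regulators of xenobiotic and bile acid metabolism: NR0B2, NR1H4, NR1I2, NR1I3, NR5A2, HNF4A, AHR and ARNT. They were taken by gene symbol from the expression table, where they are 8 of 25592 genes, and all 8 had enough reads to be tested. The list was drawn up with earlier results of these data known and was in part selected on measured values, the high NR0B2 FPKM in the AFB1 libraries and the FPKM of the receptors in a library that stands apart. Those values are therefore given as a description, and where a count of genes past a limit includes them, nothing is read from it.

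The libraries are poly(A) RNA-seq of kidney tissue from male Dorper × Small-tailed Han crossed sheep, 4 months old, fed for 21 days and housed with 2 animals per pen. The CON group received a total mixed ration with no addition. The AFB1 group received the same ration with aflatoxin B1 (AFB1), a mycotoxin of feed, at 500 µg per kg of dry matter. The AFB1_CUR group received 500 µg AFB1 and 800 mg curcumin (CUR), the turmeric polyphenol, per kg of dry matter. Each group held 6 sheep, and 5 libraries per group are described here. No group of these libraries received CUR without AFB1. The total count per library ranged from 50255295 to 68747047.

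The library labelled AFB1 replicate 1 did not carry the kidney profile of its label. Its mean log2(FPKM + 1), where FPKM is the number of fragments per kilobase of transcript scaled to library depth, was 10.75 over 15 hepatocyte markers, against 1.39 to 2.91 in the other 14 libraries. Over 8 proximal tubule markers the mean was 0.83 against 6.60 to 8.32, and over 8 loop and collecting duct markers it was 0.14 against 6.14 to 7.15. The group values, fold changes and tests below therefore rest on 14 libraries (CON n = 5, AFB1 n = 4, AFB1_CUR n = 5), AFB1 replicate 1 is given apart, and values with all 15 libraries are set beside them.

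Most of these genes encode nuclear receptors, a family of transcription factors, many of which switch on target genes when a small lipophilic molecule binds them. NR1H4 (FXR) senses bile acids. One of its targets is NR0B2 (SHP), a receptor without a DNA-binding domain that represses other factors, including NR5A2 (LRH-1), an activator of bile acid synthesis genes in the liver. NR1I2 (PXR) and NR1I3 (CAR) respond to drugs and toxins, and induce cytochrome P450 enzymes, conjugating enzymes and exporters. HNF4A maintains the differentiated state of hepatocytes and, in the kidney, of proximal tubule cells. AHR is a different kind of factor, which binds planar aromatic compounds, enters the nucleus, pairs with ARNT and induces genes such as CYP1A1.

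In CON kidneys the regulators covered a wide range of levels per transcript length. HNF4A was highest, at 57.7 ± 2.74 FPKM (SD, n = 5). ARNT at 10.1 ± 1.45 and NR1I2 at 9.46 ± 3.51 FPKM came next, and their library ranges overlapped. AHR followed at 2.70 ± 0.375, NR1H4 at 1.94 ± 0.659, NR1I3 at 1.63 ± 0.599 and NR0B2 at 1.11 ± 0.334 FPKM, and within this run each gene overlapped its neighbour. NR5A2 was lowest, at 0.191 ± 0.103 FPKM, and its highest CON library (0.327) lay under the lowest NR0B2 value (0.579). Ranked by mean FPKM over the 14 libraries, HNF4A stood at percentile 94.7 of the tested genes and NR5A2 at percentile 18.8. This order rests on the gene lengths that the deposited counts and FPKM imply, from 1.27 kb for NR0B2 to 13.9 kb for NR1H4. NR1H4, for example, had CON counts of 950 to 2059, close to the 1035 to 2071 of NR1I2, whose implied length was 2.54 kb.

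**Figure D1:**
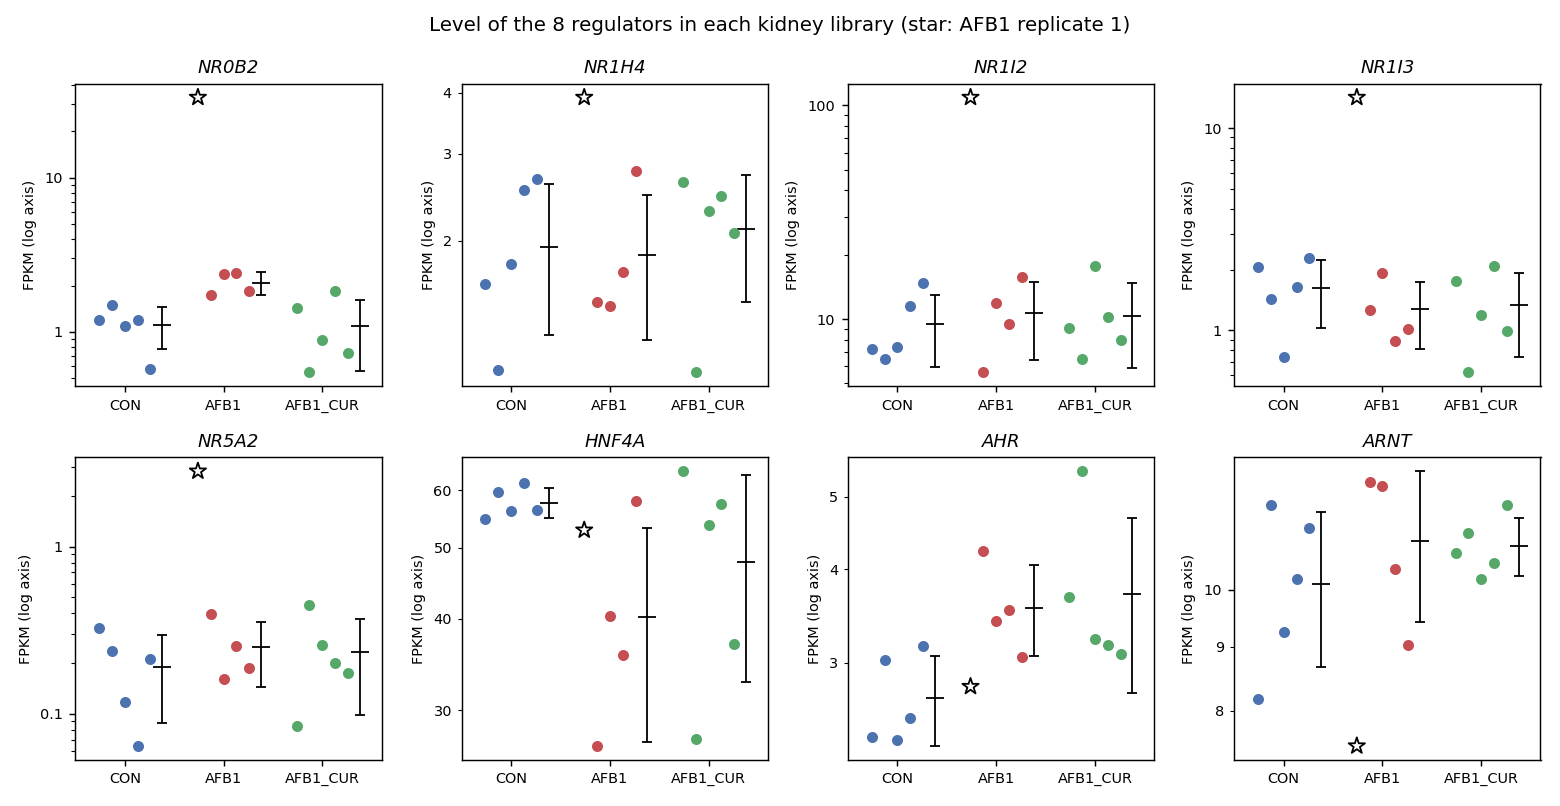
FPKM of each regulator (log axis, each panel with its own range) in CON, AFB1 and AFB1_CUR libraries. Filled points are the 14 libraries, black marks and bars their group mean ± SD (n = 5, 4 and 5), and the star is AFB1 replicate 1. NR0B2 in AFB1 (1.73 to 2.42) lies above every CON library (0.579 to 1.499), and the star lies far above the points for NR0B2, NR1I2, NR1I3 and NR5A2.

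NR0B2, the repressor of bile acid synthesis, lies on chromosome 2 from 240028981 to 240031105. Replicates 1 to 5 of the CON group had an NR0B2 level of 1.19, 1.499, 1.10, 1.19 and 0.579 FPKM, and AFB1 replicates 2 to 5 had 1.73, 2.37, 2.42 and 1.83 FPKM. The AFB1_CUR replicates 1 to 5 had 1.43, 0.549, 0.891, 1.83 and 0.730 FPKM. Thus each of the 4 AFB1 libraries was above each CON library, whereas AFB1_CUR spread across both groups, with replicate 4 at the AFB1 level. These levels rest on few reads, with counts of 41 to 119 in CON, 117 to 190 in AFB1 and 40 to 128 in AFB1_CUR. The fitted level in AFB1 was 1.904 times that in CON (log2 fold change 0.93, standard error 0.38), and in AFB1_CUR it was 0.508 times that in AFB1 (log2 fold change -0.98, standard error 0.38). Both of these estimates use the same 4 AFB1 libraries and are given as a description. Between AFB1_CUR and CON no NR0B2 difference was detectable at this precision (log2 fold change -0.05, 95% interval -0.82 to 0.72; quasi-likelihood test of edgeR, adjusted p = 0.993). When 1 library was left out, the NR0B2 estimate ranged from 0.77 to 1.045 in AFB1 against CON and from -1.27 to -0.78 in AFB1_CUR against AFB1.

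NR1H4, the bile acid receptor upstream of NR0B2, lies on chromosome 3 from 169947009 to 170027061. It had 1.09 to 2.67 FPKM in CON, 1.47 to 2.77 in AFB1 and 1.08 to 2.63 in AFB1_CUR, so the 3 groups covered nearly the same range. The log2 fold change in AFB1 against CON was -0.02 (95% interval -0.78 to 0.73; adjusted p = 0.996). In AFB1_CUR against AFB1 it was 0.09 (95% interval -0.67 to 0.84, unadjusted p of 0.812 by edgeR). Across the 14 libraries the NR1H4 level did not follow that of NR0B2 (Pearson r of log2(FPKM + 1) of -0.05, and 0.05 after group means were removed). NR5A2, the activator that NR0B2 represses, lies on chromosome 12 from 78268632 to 78396350. It stayed under 0.445 FPKM in 13 of the 14 libraries and reached 0.445 in AFB1_CUR replicate 2, with counts of 22 to 169 in all. Its log2 fold change was 0.37 in AFB1 against CON (95% interval -0.64 to 1.39; adjusted p = 0.989), too wide to place.

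Among the other genes of bile acid synthesis, transport and signalling, 13 of 22 listed were tested. In AFB1 against CON, 2 of the 13 were called higher and 0 lower, and the list median was 0.08 on the log2 scale, against 0.03 over all tested genes. A gene was called at an unadjusted p under 0.05 with a fold change above 1.5, a rule that called 2.65% of the 20070 tested genes in this comparison. One of the 2 was SLC51B, a subunit of the basolateral bile acid exporter and a known FXR target. SLC51B had 5.22, 5.72, 7.63, 6.28 and 8.47 FPKM in CON, 6.85, 13.0, 9.50 and 19.1 in AFB1 replicates 2 to 5, and 5.76, 5.73, 9.12, 5.93 and 6.70 in AFB1_CUR. AFB1 replicate 2 lay within the CON range, and replicates 3, 4 and 5 were above every library of the other groups. The log2 fold change of SLC51B was 0.91 in AFB1 against CON (standard error 0.31; edgeR's unadjusted p of 0.00986, adjusted p = 0.985) and -0.98 in AFB1_CUR against AFB1 (standard error 0.31; edgeR's unadjusted p of 0.00632, adjusted p = 0.9996). Without AFB1 replicate 5 these were 0.50 and -0.57, and the calls were lost in both comparisons. KLB, the co-receptor for the hormone FGF19, was the other. KLB averaged 0.215 ± 0.0362 FPKM in CON libraries, 0.633 ± 0.367 FPKM in those of AFB1 and 0.395 ± 0.181 FPKM in those of AFB1_CUR (SD), and the AFB1 and CON libraries did not overlap. The KLB log2 fold change in AFB1 against CON was 1.57 (standard error 0.41; edgeR's unadjusted p of 0.00166, adjusted p = 0.985). It was 1.095 without AFB1 replicate 4. With limma on log2(FPKM + 1) it was 0.40, and the call was lost. In AFB1_CUR against AFB1 the KLB value was -0.76 (95% interval -1.62 to 0.10, unadjusted p of 0.0795 by edgeR). It was -0.28 without AFB1 replicate 4, and KLB was called lower without AFB1 replicate 2 (-0.98) or AFB1_CUR replicate 3 (-1.03). With all 14 libraries 1 of the 13 genes, SLC51B, was called lower by edgeR in that comparison. DESeq2 also called SLC27A5, a bile acid ligase, higher. In AFB1_CUR against CON, 0 of the 13 were called by edgeR or limma, with 0 at an unadjusted p under 0.05 by edgeR, and DESeq2 called 1, KLB. KLB was close to the limit there, at 0.81 (unadjusted p of 0.0527 by edgeR). It was called by edgeR in 5 of the 14 fits that left out 1 library.

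The partner subunit SLC51A, which forms the exporter together with SLC51B, had the highest mean of the list, at 15.7 FPKM over the 14 libraries. SLC51A was 0.52 higher in AFB1 than in CON on the log2 scale (95% interval -0.46 to 1.505, unadjusted p of 0.271 by edgeR), which did not pass. The apical bile acid importer SLC10A2 (mean 11.7 FPKM) had -0.23 and the canalicular exporter ABCC2 (mean 11.1 FPKM) had -0.57 in that comparison, and neither passed. Within groups, NR0B2 and SLC51B did not vary together (r = -0.24 over 14 libraries after group means were removed). Both genes were higher in AFB1 than in CON, but the AFB1 library with the most SLC51B (replicate 5) was the second lowest of the 4 for NR0B2.

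**Figure D2:**
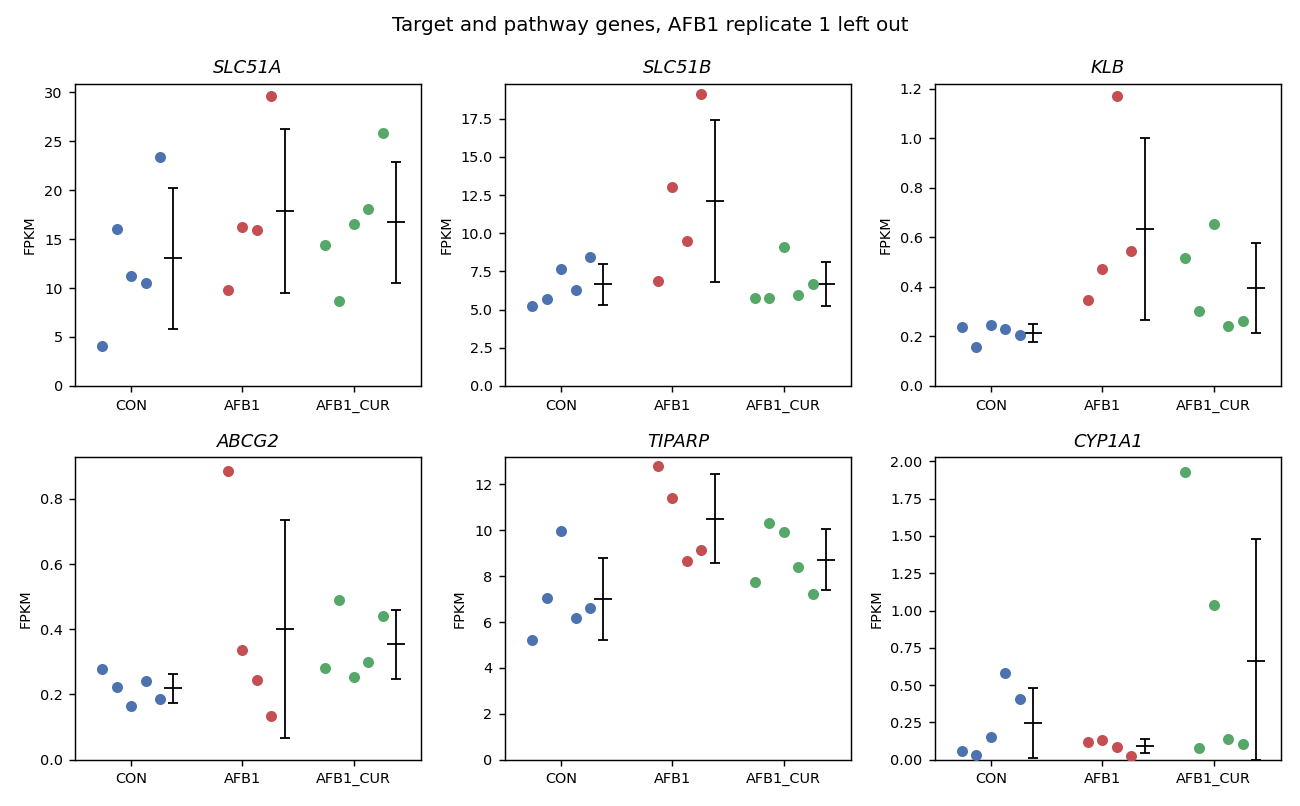
FPKM of 6 target and pathway genes in 14 libraries, with group mean ± SD (n = 5, 4 and 5; bars cut at 0) and AFB1 replicate 1 left out. KLB in AFB1 (0.348 to 1.17) is above each CON library (0.156 to 0.245), ABCG2 in AFB1 is led by replicate 2 (0.886), and CYP1A1 in AFB1_CUR by replicates 1 (1.93) and 3 (1.04).

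NR1I2, the pregnane X receptor, lies on chromosome 1 from 185482401 to 185495197. It had 7.23, 6.48, 7.41, 11.5 and 14.7 FPKM in CON, 5.64, 11.9, 9.44 and 15.8 in AFB1 replicates 2 to 5, and 9.11, 6.50, 17.8, 10.2 and 8.01 in AFB1_CUR. High and low libraries occurred in every group, and the group means of 9.46, 10.7 and 10.3 FPKM were closer together than the libraries within a group. The log2 fold change in AFB1 against CON was 0.21 (95% interval -0.61 to 1.04; adjusted p = 0.990), and in AFB1_CUR against AFB1 it was -0.15 (95% interval -0.97 to 0.68, unadjusted p of 0.705 by edgeR). NR1I3, the constitutive androstane receptor, lies on chromosome 1 from 112659164 to 112671032 on the minus strand. It had 0.739 to 2.27 FPKM in CON, 0.890 to 1.93 in AFB1 and 0.622 to 2.09 in AFB1_CUR. The NR1I3 log2 fold change in AFB1 against CON was -0.37 (95% interval -1.20 to 0.47; adjusted p = 0.985). NR1I3 is an uncertain measurement, since its locus overlaps APOA2, an apolipoprotein gene on the same strand that ranged from 0.174 to 32.7 FPKM in the 14 libraries, and also TOMM40L on the other strand.

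Of 17 listed genes that NR1I2 or NR1I3 is known to regulate, 7 were tested. The most abundant were the carboxylesterase CES2 (mean 204 FPKM), the glutathione transferase GSTA1 (92.8) and ALAS1 (26.3), the first enzyme of haem synthesis. Their log2 fold changes in AFB1 against CON were 0.03 for CES2, -0.17 for GSTA1 and -0.04 for ALAS1, and none of the 3 passed. One of the 7 genes was called in that comparison, ABCG2, an efflux transporter of drugs and urate, at 0.80 (standard error 0.37; edgeR's unadjusted p of 0.0475, adjusted p = 0.985). It had 0.165 to 0.279 FPKM in CON and 0.886, 0.335, 0.243 and 0.135 in AFB1 replicates 2 to 5. The ABCG2 call was lost in 11 of the 14 fits that left out 1 library, and in 16 of 23 other settings in all. The value was 0.14 without AFB1 replicate 2 and 0.13 without both AFB1 replicate 2 and AFB1_CUR replicate 2. In AFB1_CUR against AFB1 and in AFB1_CUR against CON, 0 of the 7 were called by edgeR or DESeq2, with 0 at an unadjusted p under 0.05, and the list medians were -0.14 and -0.10. In the latter comparison limma on log2(FPKM + 0.1) called 1, CYP3A24.

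HNF4A lies on chromosome 13 from 72742413 to 72809128. The 5 CON libraries were nearly equal, at 54.7, 59.7, 56.2, 61.3 and 56.4 FPKM (coefficient of variation 4.75%). The AFB1 replicates 2 to 5 had 26.8, 40.4, 35.7 and 57.9 FPKM (32.5%), and the AFB1_CUR replicates had 63.7, 27.4, 53.7, 57.5 and 37.0 FPKM (31.5%). Of the 4 AFB1 libraries, 3 were thus under every CON library and the other lay within the CON range, while 3 of the 5 AFB1_CUR libraries were under every CON library, replicate 3 only slightly. The log2 fold change was -0.47 in AFB1 against CON (95% interval -1.11 to 0.16; edgeR's unadjusted p of 0.134, adjusted p = 0.985) and -0.31 in AFB1_CUR against CON (95% interval -0.91 to 0.29; adjusted p = 0.899). AFB1_CUR differed from AFB1 by 0.17 (95% interval -0.47 to 0.80, unadjusted p of 0.586 by edgeR). Without AFB1 replicate 5, the HNF4A value in AFB1 against CON was -0.80, with an unadjusted p of 0.014 by edgeR.

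HNF4A moved across libraries with the cell type markers. The lowest values, 26.8 in AFB1 replicate 2 and 27.4 in AFB1_CUR replicate 2, were in the libraries with the highest mean log2(FPKM + 1) of 8 leukocyte markers, at 4.26 and 4.98 against 1.54 to 2.87 in the other 12. Over the 14 libraries the Pearson r of HNF4A was -0.80 with the leukocyte score and 0.67 with the proximal tubule score, as a description of libraries that share groups and tissue makeup. The same 2 libraries also had the highest mean of 7 adrenal markers, at 0.77 and 1.07 against 0.20 to 0.46 in the other 12, and the r of HNF4A with that mean was -0.66 (Spearman's rho -0.22). These markers did not all rise there. STAR had 4.21 and 10.8 FPKM in the 2 libraries, against 0.241 to 0.780 in CON. CYP17A1 had 0.1 and 0.279 FPKM, against 0.181 to 0.338 in CON. In bulk tissue, fewer proximal tubule cells and less HNF4A RNA per cell cannot be told apart. With both leukocyte-rich libraries left out, a setting added after the data were seen, HNF4A was at -0.31 in AFB1 against CON and -0.14 in AFB1_CUR against CON. The 8 proximal tubule markers had a median of -0.30 in AFB1 against CON, and 0 were called by edgeR, DESeq2 or limma, with 0 at an unadjusted p under 0.05.

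**Figure D3:**
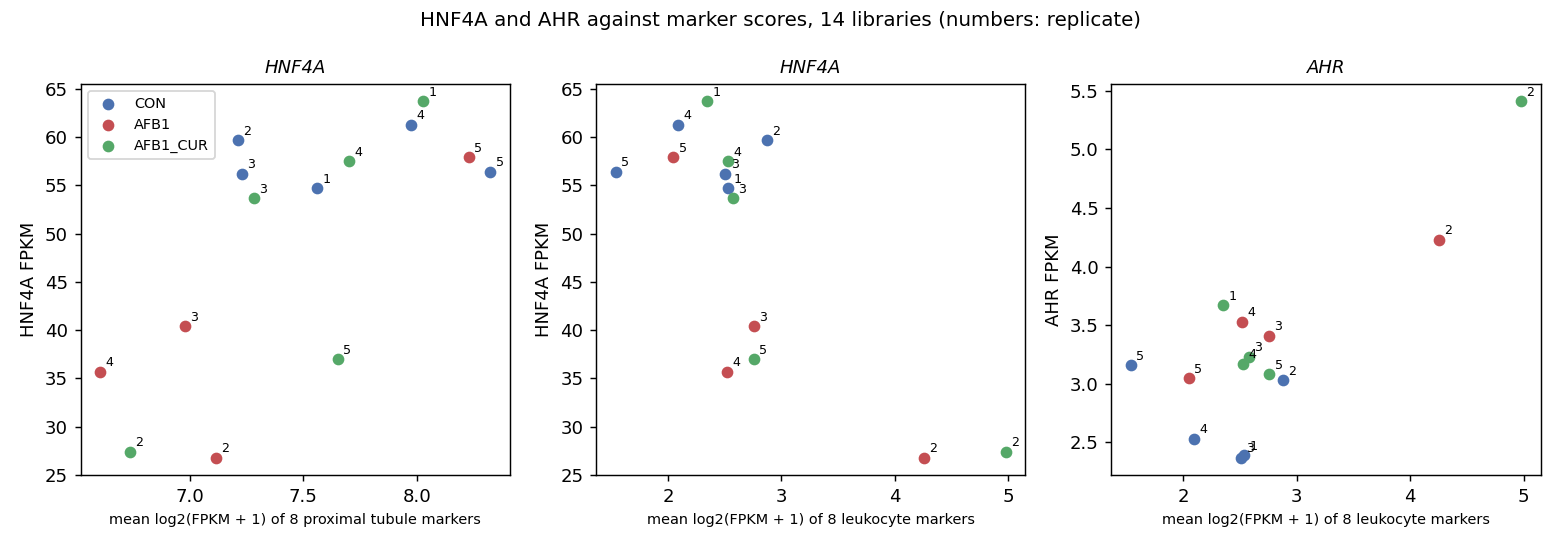
HNF4A FPKM against the mean log2(FPKM + 1) of proximal tubule markers (left) and of leukocyte markers (middle), and AHR FPKM against the leukocyte mean (right), one point per library, numbered by replicate, 14 libraries. AFB1 replicate 2 and AFB1_CUR replicate 2 combine high leukocyte means (4.26 and 4.98), low HNF4A (26.8 and 27.4) and high AHR (4.23 and 5.41).

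Other transcription factors of the same liver and kidney network did not pass. Of 18 listed, 15 were tested, and 0 were called in any of the 3 comparisons by edgeR, DESeq2 or limma, with 0 at an unadjusted p under 0.05 by edgeR. Among the most abundant were PPARA, the fatty acid sensor (mean 44.3 FPKM), and NR1H2 (28.9), an oxysterol receptor. Their log2 fold changes in AFB1 against CON were -0.28 for PPARA and -0.09 for NR1H2.

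AHR, the aryl hydrocarbon receptor, lies on chromosome 4 from 26780710 to 26831471. It had 2.39, 3.03, 2.37, 2.53 and 3.16 FPKM in CON, 4.23, 3.41, 3.53 and 3.05 in AFB1 replicates 2 to 5, and 3.67, 5.41, 3.23, 3.17 and 3.08 in AFB1_CUR. Both AFB1-fed groups lay mostly above CON, and in each the lowest library fell under the highest CON value. The log2 fold change was 0.40 in AFB1 against CON (95% interval 0.10 to 0.70; edgeR's unadjusted p of 0.0126, adjusted p = 0.985) and 0.38 in AFB1_CUR against CON (95% interval 0.09 to 0.66; edgeR's unadjusted p of 0.0132, adjusted p = 0.870). These 2 comparisons share the CON libraries. The folds of 1.32 and 1.30 were under the 1.5-fold limit, and neither passed the adjustment. AFB1_CUR and AFB1 differed by -0.02 (95% interval -0.33 to 0.28, unadjusted p of 0.866 by edgeR). The highest AHR levels were in AFB1 replicate 2 and AFB1_CUR replicate 2, the libraries with the highest leukocyte and adrenal marker means. Without both, AHR was at 0.35 in AFB1 against CON and 0.27 in AFB1_CUR against CON, with unadjusted p values of 0.0192 and 0.0413 by edgeR.

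ARNT, the partner of AHR, lies on chromosome 1 from 100772050 to 100808082. It varied least over the 14 libraries of the 8 regulators, from 8.18 to 12.2 FPKM (coefficient of variation 11.2%). Group means were 10.1 in CON, 10.9 in AFB1 and 10.8 FPKM in AFB1_CUR. The log2 fold change in AFB1 against CON was 0.11 (95% interval -0.12 to 0.34; adjusted p = 0.985).

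Of 9 listed AHR target genes, 6 were tested. In AFB1 against CON, 1 of the 6 was called higher and the list median was 0.25. This was TIPARP, an ADP-ribosyltransferase that feeds back on AHR, with a mean of 7.00 ± 1.79 FPKM for CON, 10.5 ± 1.96 for AFB1 and 8.72 ± 1.34 for AFB1_CUR (SD). Its log2 fold change was 0.59 (standard error 0.16; edgeR's unadjusted p of 0.00271, adjusted p = 0.985), just past the fold limit, and it missed that limit in 18 of 24 other settings. UGT1A6, a glucuronosyltransferase with the highest mean of the list (17.7 FPKM), was at 0.70 (unadjusted p of 0.078 by edgeR), and the amino acid transporter SLC7A5 (11.6 FPKM) at 0.27. AFB1 replicate 5 had 43.0 FPKM of UGT1A6, while AFB1 replicates 2 to 4 had 13.5, 20 and 15.6 and CON had 9.04 to 18.7. CYP1A1, the classical AHR target, was called higher in AFB1_CUR than in AFB1, on few reads (counts of 19, 24, 14 and 4 in AFB1 replicates 2 to 5). CYP1A1 had 0.0583, 0.0338, 0.155, 0.579 and 0.406 FPKM in CON, 0.121, 0.135, 0.0860 and 0.0234 in AFB1 replicates 2 to 5, and 1.93, 0.0775, 1.04, 0.141 and 0.106 in AFB1_CUR. The AFB1_CUR excess came from replicates 1 and 3, while the other 3 libraries lay within the CON range. Against CON, the CYP1A1 log2 fold changes of -1.47 in AFB1 (95% interval -3.73 to 0.79) and 1.37 in AFB1_CUR (95% interval -0.67 to 3.40) did not pass. The CYP1A1 log2 fold change in AFB1_CUR against AFB1 was 2.83 (standard error 1.10; edgeR's unadjusted p of 0.0220, adjusted p = 0.9996), 1.86 without AFB1_CUR replicate 1 and 2.54 without AFB1 replicate 5, and the call was lost in both cases. It was also lost with limma, at 0.48 on log2(FPKM + 1) and 1.30 on log2(FPKM + 0.1). CYP1A1 was the only one of the 6 called in that comparison, and 0 of the 6 were called in AFB1_CUR against CON by edgeR, DESeq2 or limma, with 0 at an unadjusted p under 0.05.

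The proteins these factors work with did not pass in any comparison. Of 16 listed dimer partners, chaperones and coregulators, 13 were tested and 0 were called in the 3 comparisons by edgeR, DESeq2 or limma, with medians of 0.07 in AFB1 against CON, 0.00 in AFB1_CUR against AFB1 and -0.01 in AFB1_CUR against CON. The chaperones that hold AHR in the cytoplasm were the most abundant, HSP90AA1 at a mean of 219 FPKM, HSP90AB1 at 168 and PTGES3 (p23) at 36.1. RXRA, the common dimer partner of NR1H4, NR1I2 and NR1I3, was at -0.34 in AFB1 against CON (unadjusted p of 0.0945 by edgeR). The only value of the list with an unadjusted p under 0.05 by edgeR was PTGES3 in AFB1_CUR against CON, at 0.43 (unadjusted p of 0.016 by edgeR), under the fold limit.

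Counted over the 8 regulators, AFB1 against CON gave 1 call (NR0B2), where 2.65% of tested genes were called, and 1 gene whose ranges did not overlap (NR0B2), where 1.60% of tested genes had none. AFB1_CUR against AFB1 gave 1 call (NR0B2), against 1.74% of tested genes, and 0 without overlap, against 0.747%. AFB1_CUR against CON gave 0 calls, against 2.64%, and 0 without overlap, against 0.767%. In the last comparison 1 regulator, AHR, had an unadjusted p under 0.05 by edgeR, and DESeq2 and limma also called 0. NR0B2 was known when the list was made, so nothing is read from these shares. The median log2 fold changes of the 8 were 0.16, -0.05 and 0.05 in that order, against 0.03, 0.00 and 0.02 over all tested genes. After Benjamini-Hochberg adjustment edgeR called 0 of 20070 genes in each comparison, although 977, 549 and 1057 genes had an unadjusted p under 0.05. DESeq2 called 21, 6 and 2 after adjustment, and limma 0 on both pseudocounts.

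AFB1 replicate 1 had levels of several regulators unlike those of the other libraries, given here as values with no test. NR0B2 was at 33.1 FPKM, 13.7 times the highest of the other 14 libraries. NR1I2 was at 109 FPKM (6.14 times), NR1I3 at 14.2 (6.23 times), NR5A2 at 2.83 (6.35 times) and NR1H4 at 3.91 (1.41 times). These 5 regulators were thus above all 14 others there, as were 10.2% of tested genes. HNF4A, at 52.9 FPKM, was within the range of the 14. AHR, at 2.79 FPKM, was under 11 of them, and ARNT, at 7.50 FPKM, under all 14, as were 51.9% of tested genes. In NR1I3 the overlap with APOA2, at 4020 FPKM in this library, leaves the level uncertain.

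With that library in the model, the group comparisons of these receptors changed in size and some in direction. The list was in part selected on the levels of the receptors in that library, so these values and counts are a description and nothing is read from them. NR1I3 turned from -0.37 to 1.77 in AFB1 against CON and from 0.03 to -2.12 in AFB1_CUR against AFB1. NR1H4 turned from -0.02 to 0.51 and from 0.09 to -0.46 in the same comparisons, and HNF4A from 0.17 to -0.12 in AFB1_CUR against AFB1. In AFB1 against CON the log2 fold change of NR0B2 became 3.48, and 3 of the 8 regulators were called (NR0B2, NR1I2 and NR5A2), where 6.26% of 20135 tested genes were. In AFB1_CUR against AFB1 the NR0B2 value became -3.54, and 4 were called (NR0B2, NR1I2, NR1I3 and NR5A2), where 5.31% of tested genes were. In AFB1_CUR against CON, which does not use that library in either group, 0 of the 8 were called, where 1.66% of tested genes were.

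**Figure D4:**
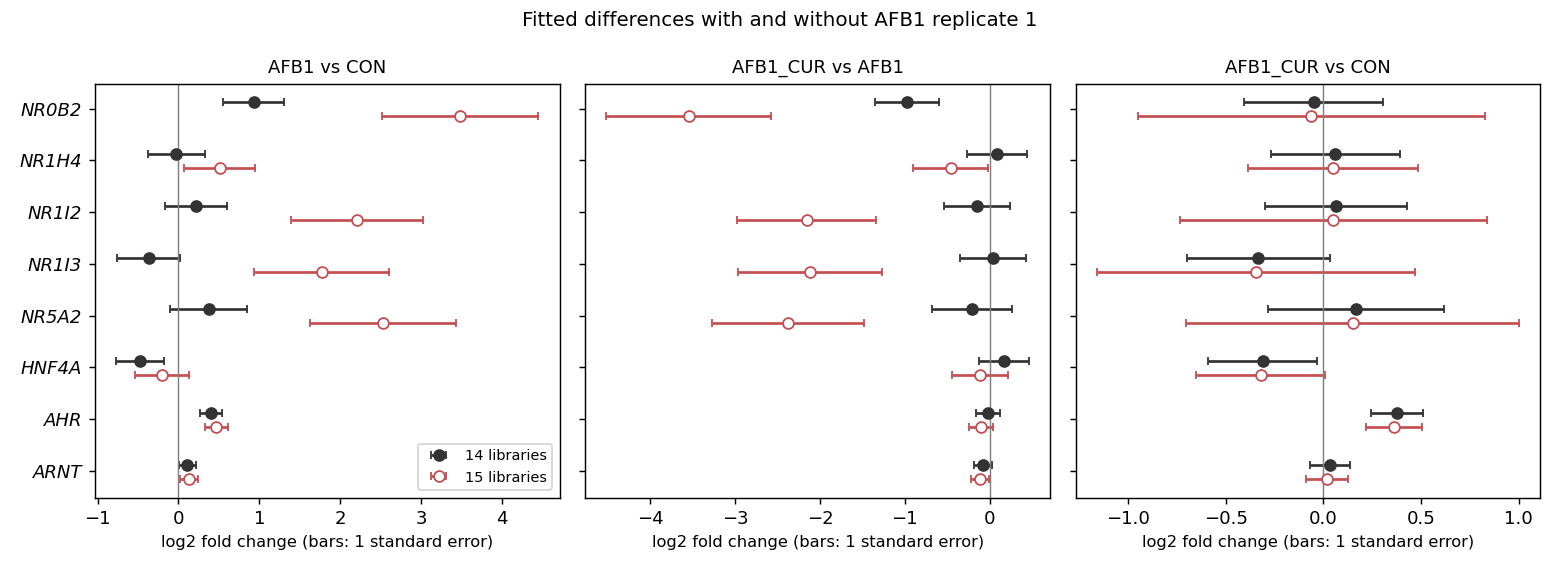
Fitted log2 fold change of each regulator in 3 comparisons, with bars of 1 standard error, from 14 libraries (filled) and from 15 libraries with AFB1 replicate 1 (open, red). NR0B2 moves from 0.93 to 3.48 in AFB1 against CON, while AHR and ARNT stay near their 14-library values.

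Transcripts of hepatocyte markers were also present in other libraries, not all of them at trace levels. SERPINA1 and F2 averaged 111 and 60.3 FPKM over the 14 libraries, against 2479 and 693 in AFB1 replicate 1. Their log2 fold changes in AFB1 against CON were -0.12 and -0.27. The hepatocyte gene ALB (albumin) had 23.9 and 11.8 FPKM in AFB1 replicates 2 and 3, 0.215 and 0.0443 in AFB1 replicates 4 and 5, 0.707 to 4.48 in CON and 0 to 1.08 in AFB1_CUR, against 25700 in AFB1 replicate 1. In AFB1_CUR against AFB1, edgeR called 3 of 14 tested hepatocyte markers lower (ALB, FGA and FGG), DESeq2 called these and AHSG, and limma called 0. The edgeR calls were lost without AFB1 replicate 2, and that of FGG in 3 of the fits that left out 1 library. In those fits the values stayed at or under -2.61 for ALB, -1.49 for FGA and -1.61 for FGG. All 14 tested markers were under 0 in that comparison (median -0.58). In AFB1 against CON, 10 of the 14 markers were above 0 (median 0.67), and 0 were called by edgeR, DESeq2 or limma, with 0 at an unadjusted p under 0.05. Over the 14 libraries, the Pearson r with the hepatocyte score was 0.42 for NR0B2 and 0.58 for NR1I3. APOA2, whose locus overlaps NR1I3, is one of the genes of that score, so the NR1I3 value may be in part built in. The score also includes SERPINA1 and F2. The profile of AFB1 replicate 1 was scaled to the level of a hepatocyte marker in each other library, and the scaled value was highest in AFB1 replicate 2. For NR0B2 it came to 0.0309 FPKM there when scaled to ALB, 0.0823 to FGA and 0.0916 to FGG, or 1.78%, 4.75% and 5.29% of the measured level. For SLC51B these shares were 0.270%, 0.720% and 0.802%, and for KLB 0.608%, 1.62% and 1.80%. For CYP1A1, however, the scaled value was 0.103 FPKM by ALB, 0.275 by FGA and 0.306 by FGG, where 0.121 was measured, so it depended on the marker and by FGA and FGG exceeded the measured level. The part of hepatocyte transcripts in these levels was not tested beyond this scaling.

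Single leukocyte and adrenal cell markers also differed between groups. In AFB1_CUR against CON, 2 of 8 leukocyte markers (MS4A1 and CD68) and 1 of 5 tested adrenal markers (STAR) were called higher by edgeR, and all 3 calls were lost without AFB1_CUR replicate 2. When each of the 14 libraries was left out in turn, the CD68 call was lost in 6 fits, MS4A1 in 4 and STAR in 3, among them without CON replicate 1 or 5 for all 3 genes. DESeq2 called CD68, CSF1R and PTPRC, and limma called none of these markers higher. The 5 adrenal markers had a median of -0.19 in that comparison, with 2 above 0 and 3 under it. In AFB1 against CON, 0 of 8 leukocyte markers were called by edgeR, and CYP17A1, a steroid enzyme of the adrenal list, was called lower at -1.48 (edgeR's unadjusted p of 0.0219, adjusted p = 0.985). The CYP17A1 value rests on few reads, with counts of 10, 4, 9 and 14 in AFB1 replicates 2 to 5 and 18 to 38 in CON. The 8 leukocyte markers had medians of 0.85 in AFB1 and 0.91 in AFB1_CUR against CON. Over the 14 libraries, the Pearson r with the leukocyte score was 0.75 for AHR and 0.74 for NR5A2, and -0.73 for NR1H4, -0.65 for NR1I2 and -0.12 for NR0B2. For AHR, Spearman's rho was 0.39 with the leukocyte score, and with the adrenal score r was 0.73 and rho 0.16. The part of leukocytes or adrenal cells in the levels of the regulators was not tested.

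The regulators also differed in which genes resembled them across the 14 libraries. After group means were removed, the genes with the highest Pearson r of log2(FPKM + 1), among 20069 compared, are named here as a description of libraries that share tissue makeup and depth. For HNF4A they were PPARA (r = 0.97), SLC5A2, the proximal tubule glucose transporter (0.95), and HDAC6 (0.95). For NR1H4 they were HYKK (0.95), CAT, which encodes catalase (0.94), and LOC101114275 (0.94), and NR1H4 had an r of 0.81 with the proximal tubule score before group means were removed. NR1I2 resembled CRAT, a carnitine acetyltransferase (0.93), CHP1 (0.93) and LOC132660082 (0.93). NR1I3 resembled CYP2J, a cytochrome P450 (0.90), LOC121820389 (0.87) and ENTPD8 (0.86). AHR resembled TMEM255A (0.97), CNOT2 (0.97) and LOC121817447 (0.96), and ARNT resembled GPALPP1 (0.89), CADM1 (0.87) and EXOC6B (0.87). NR0B2 had FRMD1 (0.89), LOC132657437 (0.86) and ACTMAP (0.85). Before group means were removed, the r of NR0B2 with FRMD1 was 0.12. Some of the genes named were at low levels, with means of 0.32 FPKM for LOC132657437, 0.27 for TMEM255A, 0.14 for LOC121817447 and 0.44 for LOC132660082. NR5A2, under 1 FPKM on average, was not compared.

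Among the regulators themselves, NR1H4 and NR1I2 had the highest r of the 28 pairs over the 14 libraries (0.71), and HNF4A and AHR the lowest (-0.72). HNF4A was also opposite to NR5A2 (-0.68). AFB1 replicate 2 and AFB1_CUR replicate 2 had the lowest HNF4A, the highest AHR and the highest NR5A2 (0.395 and 0.445 FPKM) of the 14 libraries.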

How the data were processed

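Kidney RNA was sequenced from CON, AFB1 and AFB1_CUR sheep (5 libraries each). Libraries were grouped by their titles, since the treatment label counts upward within a group, and doses, age and feeding time were taken from the methods of the study. The authors trimmed reads (cutadapt 1.9), aligned them with HISAT2 2.2.1, and deposited, for 25592 genes, read counts and FPKM values per library. StringTie 2.1.6 and the tools edgeR and DESeq2 are also named in the submitters' processing notes. The gene counter and its use of strand, like the assembly, were not given in the sources used here. Start positions equalled those of ARS-UI_Ramb_v3.0 for 99.9% of the 24947 genes matched by symbol, and start and end did so for the 8 regulators, so coordinates are given on that assembly.

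Counts were fitted with edgeR 4.0.16 in R 4.3.3 (quasi-likelihood test, TMM factors 0.85 to 1.18) on 14 libraries in 1 model of 3 groups, without AFB1 replicate 1, for 20070 genes with a count of at least 10 in at least 4 libraries. Calls needed a fold change over 1.5 with an unadjusted p under 0.05, and p-values were Benjamini-Hochberg adjusted over all tested genes. Intervals are 95% intervals of the fitted log2 fold change. Alternatives used all 15 libraries, left out each library in turn, used only the compared groups, a replicate block, DESeq2 size factors, DESeq2 1.42.0, limma 3.58.1 on log2(FPKM + 1) or log2(FPKM + 0.1), a filter of 1 FPKM in 5 libraries, or no filter. Leaving out both leukocyte-rich libraries was added after the data were seen. Scripts were tested on simulated data.

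The regulators and gene lists were chosen with earlier results of these data known. Named were the 8 regulators, in each list the called genes (at most 5 per comparison), in 5 pathway lists also the 3 genes with the highest mean FPKM, and for each regulator with a mean of at least 1 FPKM its 3 nearest genes. A few others (RXRA, CYP3A24, APOA2, SLC27A5, CSF1R and PTPRC) were named after their values were seen, and some results under this rule are not reported here. Libraries are numbered as separate samples of a group, and pens held 2 animals, so p-values measure only the spread between these samples. No promoter or protein sequence was used here.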

Additional observations from a re-analysis of the deposited data

Results flagged for a closer look

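Within each group of 4 or 5 libraries, the gap between the highest or lowest library and its nearest neighbour was compared with the range of the group (Dixon's 95% limit), for the 8 regulators, the AFB1 group being checked with and without AFB1 replicate 1. Of 32 such checks 5 stood out. In the AFB1 group with replicate 1, that library stood apart in NR0B2 at 33.1 FPKM (nearest library 2.42), in NR1I2 at 109 (nearest 15.8), in NR1I3 at 14.2 (nearest 1.93) and in NR5A2 at 2.83 (nearest 0.395). These 4 values come from 1 library, which carries hepatocyte markers in place of kidney markers, and are not independent of each other. The list was in part selected on them, so they are a description, and the chance rate of such checks, about 1 in 20, does not apply to them. In the AFB1_CUR group, replicate 2 stood apart in AHR at 5.41 FPKM (nearest 3.67). This library also had the highest leukocyte (4.98) and adrenal (1.07) marker means of the 14. The part of that in its AHR level was not tested.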

How the results depend on the processing

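The number of called genes depended on the libraries and the scale. For AFB1 against CON (532 genes) it was 1261 with all 15 libraries, 109 with limma on log2(FPKM + 1), 232 with the FPKM filter, 867 without a filter and 471 to 839 when 1 library was left out (839 without AFB1 replicate 5). For AFB1_CUR against AFB1 (350 genes) it was 1069, 87, 123, 707 and 322 to 656 (656 without AFB1 replicate 2), in the same order. For AFB1_CUR against CON (530 genes) it was 334, 82, 214, 928 and 301 to 704 (301 without AFB1_CUR replicate 2), and 329 without both leukocyte-rich libraries. Of the 8 regulators, AFB1 against CON gave 3 calls with all 15 libraries, 0 with limma on log2(FPKM + 1) and 0 to 2 when 1 library was left out (2 without AFB1 replicate 5, with HNF4A), and AFB1_CUR against AFB1 gave 4 with all 15 libraries and 0 to 1. On log2(FPKM + 1) the NR0B2 value in AFB1 against CON was 0.56, a scale that compresses low levels, and NR0B2 was not counted there, without CON replicate 5 (0.77), AFB1 replicate 3 (0.90) or AFB1 replicate 4 (0.84), or in AFB1_CUR against AFB1 without AFB1 replicate 4 (-0.89). With all 15 libraries the direction turned, among other named genes, for NR1I3 (-2.12), NR1H4 (-0.46), HNF4A (-0.12), CYP1A1 (-5.78), CYP17A1 (-1.03), CD68 (-0.64), ABCC2 (-0.72), ALAS1 (-1.90) and RXRA (-0.35) in AFB1_CUR against AFB1, and for NR1I3 (1.77), NR1H4 (0.51), CYP1A1 (7.15), CYP17A1 (0.050), ABCC2 (0.43), ALAS1 (1.89), RXRA (0.047) and SLC7A5 (-0.018) in AFB1 against CON. MS4A1 in AFB1_CUR against CON ranged from -0.63 (without AFB1_CUR replicate 2) to 5.05 when 1 library was left out, and was also -0.63 without both leukocyte-rich libraries. AHR kept its direction in 24 settings, at 0.30 to 0.48 in AFB1 against CON and 0.27 to 0.45 in AFB1_CUR against CON, and was not called in any. Same-numbered libraries of different groups had an r of deviations from group means of -0.28 to 0.59 over 13 pairs (median 0.11, 7 of them over 0.1), against -0.58 to 0.43 over 52 other pairs (median -0.03). Of the 14 libraries, 4 had their highest r with their own number, and no source says that a number marks a shared pen or day, so the numbers were not treated as pairing the sheep. With a replicate block 486, 342 and 591 genes and 1, 1 and 0 regulators were called, and among the listed genes the calls of ABCG2 (0.66) and TIPARP (0.56) in AFB1 against CON, of CYP1A1 (1.66), ALB, FGA and FGG in AFB1_CUR against AFB1 and of MS4A1 and CD68 in AFB1_CUR against CON were lost, while STAR in AFB1_CUR against AFB1 and KLB in AFB1_CUR against CON (0.79) were gained. NR0B2 and NR5A2 rest on counts under 200 in the 14 libraries, which limits the precision of their folds.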
